A study of Mus musculus with 4 samples.

Results

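Glutamate and GABA are the main excitatory and inhibitory transmitters of the brain, and the genes described here encode the subunits of the receptors that bind them. The members were the protein-coding genes whose names match the AMPA, NMDA, kainate, delta and metabotropic glutamate receptor families and the GABA-A and GABA-B families, joined over the 4 deposited tables. This gave 44 genes of 23475 in all, and of the 47 names in those families Gabra6, Gabrp and Gabrr3 were not listed. The mRNA came from astrocytes that were isolated out of mouse cerebral cortex on postnatal day 5. There were 2 libraries labelled KO, from mice named PD1cKO-Cx3, in which the gene for the inhibitory immune receptor PD-1 is conditionally deleted. There were 2 libraries labelled WT, from PD1fl/fl mice, which carry a floxed but undeleted PD-1 gene. What Cx3 stands for in the first name, and so which cells lose PD-1, is not spelled out in the sources used here. Whether the libraries of a group stand for separate or pooled animals is not said, so the p-values here cover the spread between these libraries alone.

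AMPA, NMDA, kainate and delta subunits build the tetramers of the ionotropic glutamate receptors, which open a cation channel. Metabotropic glutamate (mGlu) receptors signal through G proteins, and mGlu3 (gene Grm3) and mGlu5 (gene Grm5) are the members best known from astrocytes, with mGlu5 a receptor of young astrocytes in particular. GABA-A receptors are pentameric chloride channels and GABA-B receptors are G protein-coupled dimers. Neurons and oligodendrocyte precursors carry many of the same subunits, so a bulk library does not say which cell a transcript came from, and fewer cells of a type cannot be told apart from less RNA per cell.

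The permeability of an AMPA or kainate receptor to calcium depends on a glutamine codon in the pore loop, the Q/R site, which RNA editing recodes in Gria2 transcripts. The coding stretches around that codon are shown for the AMPA subunits and for the kainate subunits Grik1 and Grik2. Grik3, Grik4 and Grik5 were not examined there. The stretches show how alike and how different the paralogs shown are at the site. They were read from GENCODE M21 transcripts (build GRCm38), 51 bases each, written 5′ to 3′ on the coding strand with the codon in capitals:
Gria1: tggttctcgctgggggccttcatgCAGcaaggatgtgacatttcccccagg
Gria2: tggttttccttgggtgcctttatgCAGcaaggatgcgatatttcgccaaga
Gria3: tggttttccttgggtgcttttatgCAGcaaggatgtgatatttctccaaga
Gria4: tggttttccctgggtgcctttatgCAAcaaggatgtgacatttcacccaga
Grik1: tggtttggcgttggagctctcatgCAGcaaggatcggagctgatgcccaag
Grik2: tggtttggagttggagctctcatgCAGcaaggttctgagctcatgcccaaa

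The Gria2 codon lies on chromosome 3 at 80706911 to 80706913 (minus strand) in exon 11 of 16, and the Gria3 codon on chromosome X at 41610265 to 41610267 (plus strand), also in exon 11 of 16. Of the 51 bases, 48 are the same in Gria3 as in Gria2, 45 in Gria4, 41 in Gria1 and 32 in Grik2. The Gria4 stretch is the one with CAA in place of CAG. The longest run that Gria3 shares with Gria2 in this window is 17 bases. The sources used here do not say how reads that match several genes were counted, and gene counts carry no base calls, so editing was not measured.

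Libraries held between 14224519 and 16961160 listed counts. The targeted gene, Pdcd1, had very low counts that were not lower in the libraries labelled KO. KO replicate 2 had 20 and neither WT library had any (0 and 0). KO replicate 1, without an entry, can have had at most 4. Which cells lose PD-1 is not stated, so these counts do not test the labels. KO therefore stands below for the libraries labelled KO, and each direction rests on that label. KO replicate 2 had 0 counts of Xist, where the other libraries had 6732 to 8564, and 2472 counts of the Y-linked gene Ddx3y, which had 0 in both WT libraries. KO replicate 1 had 6778 counts of Xist and, without an entry for Ddx3y, can have had at most 4 of that gene. By these counts the KO libraries differ in sex, so they did not come from the same animals. Astrocyte markers were strong in every library, with 15 of 15 detected and a summed level of 7955 to 8938 CPM (counts scaled to 1000000 per library) in KO libraries and 8637 to 9315 CPM in WT libraries. Markers of other cell types were present too, with 20 of 20 neuron markers at 3112 to 3380 CPM in KO libraries and 3215 to 3583 CPM in WT libraries. Without overlap, 5 of these 20 lay higher and 7 lower in the KO libraries, beside 21.2% and 18.4% of all genes. The sums hold Reln, with 297 and 409 CPM in the KO libraries and 85.9 and 128 CPM in the WT libraries. Per kilobase of exon, the neuron markers summed to 448 and 462 in the KO libraries and 510 and 574 in the WT libraries. The 12 microglia markers summed to 3883 to 4585 CPM in KO libraries and 853 to 1260 CPM in WT libraries, with none at 0 and P2ry12 the 1 marker past the threshold. The 8 endothelial markers summed to 269 to 530 CPM in KO libraries against 63.6 to 159 CPM in WT libraries. Among oligodendrocyte precursor markers, 9 of 10 had a log2 fold change above 0, and their sum was 2595 to 2628 CPM in KO libraries and 1908 to 2466 CPM in WT libraries. Oligodendrocyte markers had 6 of 6 tested genes above 0, with a median log2 fold change of 0.85 and sums of 733 to 929 CPM in KO libraries and 397 to 589 CPM in WT libraries. Pericyte and smooth muscle markers had 5 of 6 tested genes above 0, with sums of 411 to 695 CPM in KO libraries and 335 to 362 CPM in WT libraries. The part of these cell types in the receptor values below was not tested.

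Grm3 was the most abundant receptor gene of the set, and no receptor gene passed the edgeR test between the groups. Of the 44 members, 38 passed the low-count filter and were tested, and 0 of them passed at an adjusted p under 0.05 (edgeR quasi-likelihood test, Benjamini-Hochberg over all 17696 genes tested), where 0.017% of all genes passed. At an unadjusted p under 0.05 there were 4 members, which is 10.5% of those tested beside 8.29% of all genes. Of the 4 members, 1 had a higher and 3 a lower mean in the KO libraries, where 5.88% of all genes were higher and 2.41% lower. DESeq2 called 1 member, Gria3, where it called 2.14% of all genes, and limma-voom called 0 members, where it called 0.158%. In 16 members (42.1%) the groups did not overlap, beside 39.6% of all genes. Of these, 8 lay higher (21.1%, beside 21.2% of all genes) and 8 lower (21.1%, beside 18.4%), so the members' shares lie near the background. When KO replicate 2 was left out, the log2 fold changes were 0.69 for Gria3, -1.12 for Grin2b and -0.37 for Gabbr1. Their signs could hardly turn, since for each gene both KO libraries lie on the same side of both WT libraries. The median log2 fold change (KO over WT) was -0.05 over the members and 0.00 over all genes tested, with 15 members above 0 and 23 below. Summed over the members, receptor transcripts made up 1891 and 2067 CPM in the KO libraries, against 2005 and 2111 CPM in the WT libraries.

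**Figure D1:**
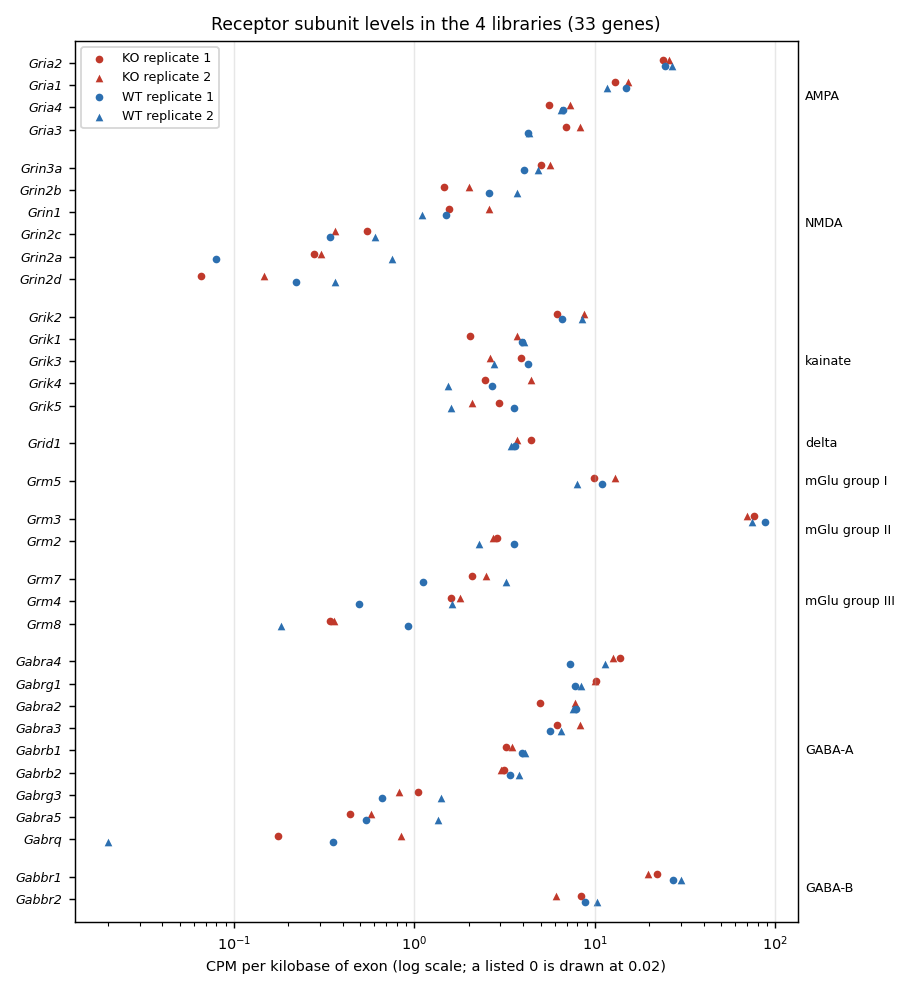
Level of 33 of the tested receptor subunits in the 4 libraries, as CPM per kilobase of exon on a log scale, with the families in blocks and each point a library (KO red, WT blue). Grm3 lies at 69.7 to 87.4 and stands above every other subunit, while most others lie between 1 and 30.

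Levels of different genes can be compared only per length, here as CPM per kilobase of annotated exon. Grm3 had 76.8 CPM per kilobase over the 4 libraries (69.7 to 87.4), higher than 97.1% of the protein-coding genes in the tables. Gria2, with 25.2 (23.7 to 26.6), and Gabbr1, with 24.8 (19.8 to 30.1), came next and overlapped each other, as their neighbour Gria1, with 13.7 (11.7 to 15.3), did not. From Gria1 downward the neighbours overlapped, with Gabra4 at 11.3, Grm5 at 10.5, Gabrg1 at 9.08, Gabbr2 at 8.39 and Grik2 at 7.48 CPM per kilobase also among the first 10. At the other end, Grin3b, Grm6, Gabrd, Gabre, Gabrr1 and Gabrr2 did not pass the filter, and none exceeded 1.68 CPM in any library. Gabrd, the subunit of tonic GABA-A receptors, was listed with 0 counts in both KO libraries and with 7 and 14 counts in the WT libraries. With 0 counts, a level of up to 0.187 CPM in KO replicate 1 and 0.184 CPM in KO replicate 2 remains possible from counting error alone. Grm6, Gabre, Gabrr1 and Gabrr2 never exceeded 13 counts. Grin3b had 27 and 2 counts in the KO libraries and 0 and 3 in the WT libraries, and 32.1% of its exon bases overlap Tmem259 on the opposite strand.

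The groups overlapped for both glial receptors, Grm3 and Grm5. Grm3 (chromosome 5, 9485541 to 9725170, minus strand), whose product lowers cyclic AMP through Gi proteins, had 231 and 213 CPM in the KO libraries and 267 and 226 CPM in the WT libraries. WT replicate 1 was the highest and KO replicate 1 lay between the WT libraries, and the log2 fold change was -0.15 with a 95% interval of -0.49 to 0.19 (adjusted p = 0.88, edgeR). Grm5 (chromosome 7, 87584168 to 88134907, plus strand), which couples through Gq to calcium release, had 102 and 133 CPM in the KO libraries and 113 and 81.8 CPM in the WT libraries. WT replicate 1 lay between the KO libraries, and the log2 fold change was 0.27 (95% interval -0.28 to 0.83, adjusted p = 0.86, edgeR). Leaving out KO replicate 2 gave 0.067, leaving out WT replicate 2 gave 0.062 and leaving out WT replicate 1 gave 0.52. Per kilobase, Grm5 stood at 0.131 and 0.186 of Grm3 in the KO libraries and at 0.126 and 0.107 in the WT libraries.

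Set against the other 36 tested members, taken here as the neuronal subunits although several also occur in glia, the glial receptors lay close to the rest in fold change. The mean log2 fold change of Grm3 and Grm5 was 0.06 and the median of the others -0.05, a difference of 0.11, which was -0.28 without WT replicate 2. The per-library difference in log2(CPM + 0.5) was 2.58 and 2.68 in the KO libraries and 2.81 and 2.41 in the WT libraries, so the WT libraries enclosed the KO libraries. In all libraries the summed level of Grm3 and Grm5 was 308 to 379 CPM, out of a receptor total of 1891 to 2111 CPM.

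**Figure D2:**
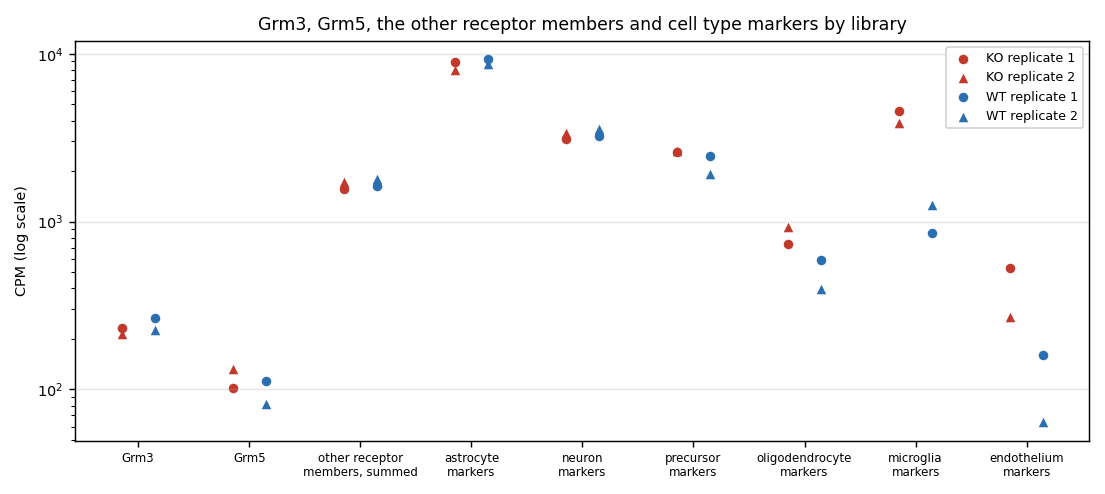
Grm3, Grm5, the summed other receptor members and the summed cell type markers in each library, in CPM on a log scale (KO red, WT blue). The groups overlap for Grm3, Grm5 and the other members, while the microglia markers lie at 3883 to 4585 CPM in KO libraries and 853 to 1260 CPM in WT libraries.

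Among AMPA subunits, Gria3 had the smallest p of all receptor members. Gria3 (GluA3, chromosome X, 41400854 to 41678601, plus strand) had 68.4 and 81.7 CPM in the KO libraries and 42.0 and 42.5 CPM in the WT libraries. Both KO libraries lay above both WT libraries, 1.78-fold in the fit (log2 fold change 0.83 ± 0.19 SE, 95% interval 0.36 to 1.30), and the adjusted p was 0.35 (edgeR), 0.0405 by DESeq2 and 0.254 by limma-voom, with a range of 0.0405 to 1 over all alternatives. Without KO replicate 2, the library without Xist counts, the log2 fold change was 0.69. It was at most 0.95 when any other library was left out. Gria2 (GluA2), the subunit that makes AMPA receptors impermeable to calcium once edited, had 368.6 and 399.99 CPM in the KO libraries and 382 and 414 CPM in the WT libraries. Its groups overlapped, and its log2 fold change of -0.05 had a 95% interval of -0.33 to 0.23. Gria1 (GluA1) and Gria4 (GluA4) overlapped between groups too, with log2 fold changes of 0.09 and -0.02.

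Within the AMPA family, Gria2 supplied about as much per-kilobase signal as the other subunits together. Its share of the summed CPM per kilobase was 48.3% and 45.5% in the KO libraries and 48.9% and 54.2% in the WT libraries. The share of Gria3 was 14.1% and 14.6% in the KO libraries, against 8.47% and 8.77% in the WT libraries. These shares do not depend on the scaling of a library, and for Gria3 the replicates of a group lay closer together than the groups did. Shares within a family are tied to each other, and Gria3 was singled out by its p in these same libraries. Its shares are therefore not a separate observation. With length taken from the longest transcript instead, the share of Gria3 over the 4 libraries was 15.8%.

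Among NMDA subunits, Grin3a was the most abundant per kilobase and Grin2b had the smallest p. Grin3a encodes GluN3A, which lowers the calcium permeability of NMDA receptors and is typical of the young brain. It had 61.6 and 69.4 CPM in the KO libraries and 49.9 and 59.1 CPM in the WT libraries, without overlap (log2 fold change 0.26 ± 0.19 SE, adjusted p = 0.83, edgeR). Grin2b, on chromosome 6 at 135713233 to 136173511 (minus strand), encodes GluN2B, the glutamate-binding subunit that prevails before the switch to GluN2A. It had 36.1 and 50.0 CPM in the KO libraries and 64.4 and 91.9 CPM in the WT libraries. Both KO libraries lay below both WT libraries, and the log2 fold change was -0.86 ± 0.27 SE (95% interval -1.52 to -0.20, adjusted p = 0.46, edgeR). Grin1, the obligatory subunit GluN1, had 15.0 and 25.0 CPM in the KO libraries and 14.4 and 10.8 CPM in the WT libraries. The KO libraries were above the WT libraries by a narrow margin. The log2 fold change of 0.67 (adjusted p = 0.74, edgeR) was 0.25 without KO replicate 2. An antisense gene, Grin1os, overlaps 13.5% of the Grin1 exons, and the sources used here do not say if the counting was stranded.

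Per kilobase, the groups did not overlap in the shares that Grin2b and Grin3a held of the NMDA family. Shares within a family are tied to each other, so these are not separate observations. Grin2b held 15.4% and 18.2% of the family's CPM per kilobase in the KO libraries and 29.5% and 32.4% in the WT libraries. Grin3a held 53.3% and 50.9% in the KO libraries and 46.2% and 42.2% in the WT libraries. Grin2a (GluN2A), the subunit of the mature brain, had 4.99 and 5.45 CPM in the KO libraries and 1.42 and 13.5 CPM in the WT libraries. WT replicate 2 was the highest and WT replicate 1 the lowest, so the WT libraries enclosed the KO libraries. The ratio of Grin2b to Grin2a per kilobase was 5.22 and 6.63 in the KO libraries and 32.8 and 4.93 in the WT libraries, above 1 in every library. Grin2c, the NMDA subunit of astrocytes in the adult brain, stayed at 1.72 to 3.05 CPM in all libraries, and Grin2d at 0.437 to 2.43 CPM. Grin2d passed the filter with 2 WT libraries and 1 KO library.

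**Figure D3:**
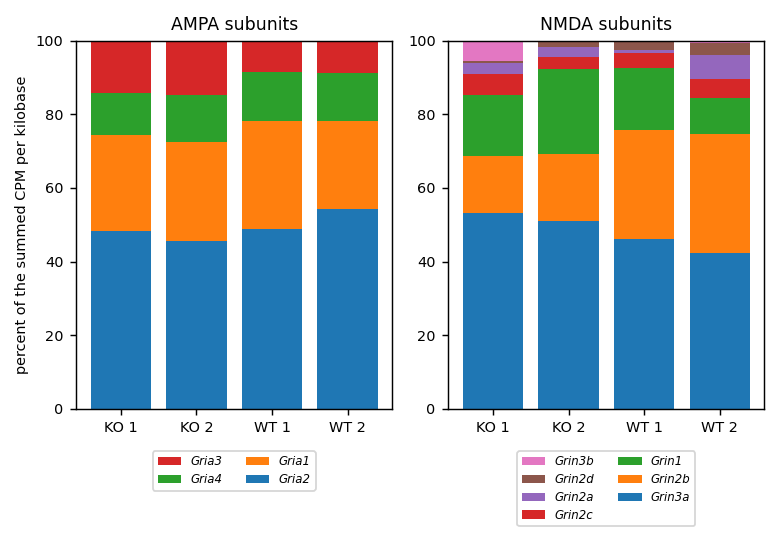
Share of each subunit in the summed CPM per kilobase of the AMPA and NMDA subunits, in percent for each library. The Gria3 band is wider in the KO libraries (14.1% and 14.6%) than in the WT libraries (8.47% and 8.77%), and the Grin2b band is narrower in the KO libraries (15.4% and 18.2%) than in the WT libraries (29.5% and 32.4%).

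Kainate and delta receptor genes overlapped between the groups in 5 of 7 cases, and the 2 that did not overlap stand beside 39.6% of all genes, so this count lies near the background. Grik2 (GluK2), the most abundant kainate subunit, had 81.3 and 115 CPM in the KO libraries and 87.2 and 113 CPM in the WT libraries (log2 fold change -0.03, 95% interval -0.60 to 0.54). Grik1 (GluK1) had 13.7 and 24.8 CPM in the KO libraries and 26.6 and 27.3 CPM in the WT libraries, where KO replicate 1 was far below the other 3 (log2 fold change -0.48, adjusted p = 0.82, edgeR). The log2 fold change of Grik1 was -0.12 without that library and -0.97 without KO replicate 2. Grik3, Grik4 and Grik5, the last of which is a high-affinity subunit that needs a partner, lay between 8.26 and 38.2 CPM, and all 3 overlapped between the groups. Of these Grik4 had the largest log2 fold change, 0.71 with an interval from -0.37 to 1.80. Grid1, a delta receptor that organises synapses, had 26.5 and 22.1 CPM in the KO libraries and 21.5 and 20.5 CPM in the WT libraries (log2 fold change 0.21, adjusted p = 0.92, edgeR).

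The other mGlu receptors were low beside Grm3, which held 81.3% and 76.6% of the family's CPM per kilobase in the KO libraries and 83.5% and 82.9% in the WT libraries. The group III receptors, which sit mostly on nerve terminals, varied between replicates, with Grm4 at 9.55 and 10.7 CPM in the KO libraries and 2.96 and 9.65 CPM in the WT libraries. Grm7, with 12.3 and 14.8 CPM in the KO libraries and 6.57 and 19.0 CPM in the WT libraries, and Grm8 had WT libraries on both sides of the KO libraries. Grm2, the Gi-coupled relative of Grm3, also lay between the WT libraries, with 14.1 and 13.3 CPM in the KO libraries and 17.4 and 11.1 CPM in the WT libraries.

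GABA-A receptors are assembled from alpha, beta and gamma subunits, and of 12 tested genes 5 had a log2 fold change above 0 and 7 below, with a median of -0.17. Gabra4 was the most abundant alpha gene, with 83.5 and 76.8 CPM in the KO libraries and 44.5 and 68.9 CPM in the WT libraries. Both KO libraries lay above both WT libraries (log2 fold change 0.50 ± 0.25 SE, adjusted p = 0.69, edgeR). The log2 fold change was 0.22 when WT replicate 1 was left out and 0.85 when WT replicate 2 was. Gabrg1, a gamma subunit that astrocytes are known to express, had 80.2 and 78.4 CPM in the KO libraries and 61.2 and 66.2 CPM in the WT libraries, again without overlap (log2 fold change 0.32 ± 0.16 SE, adjusted p = 0.71, edgeR).

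Among the other alpha genes, Gabra2, an alpha subunit of the young brain, had 37.9 and 59.0 CPM in the KO libraries and 59.8 and 57.5 CPM in the WT libraries. Its lower KO mean rested on KO replicate 1, and its log2 fold change of -0.27 was 0.013 without that library. Of the alpha subunits' summed CPM per kilobase, Gabra4 held 49.6% and 40.7% in the KO libraries and 31.8% and 40.1% in the WT libraries. Gabra2 held 17.9% and 24.9% in the KO libraries and 34.0% and 26.6% in the WT libraries. The groups did not overlap in either share, and shares within a family are tied to each other. Gabra3 had 24.1 and 32.5 CPM in the KO libraries and 22.2 and 25.5 CPM in the WT libraries, with overlap (log2 fold change 0.25, adjusted p = 0.91, edgeR). Gabra5, the subunit of extrasynaptic receptors in the hippocampus, was low, with 1.31 and 1.71 CPM in the KO libraries and 1.60 and 4.03 CPM in the WT libraries.

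Both GABA-B genes had less in each KO library than in each WT library, as did 18.4% of all genes tested. Neither GABA-B gene passed the test. Gabbr1 (chromosome 17, 37045966 to 37075067, plus strand), the subunit that binds GABA, had 173 and 154 CPM in the KO libraries and 211 and 234 CPM in the WT libraries (log2 fold change -0.45 ± 0.14 SE, 95% interval -0.78 to -0.11, adjusted p = 0.46, edgeR). Gabbr2, the subunit that couples to the G protein, had 55.8 and 40.6 CPM in the KO libraries and 58.9 and 69.1 CPM in the WT libraries (log2 fold change -0.41 ± 0.23 SE, adjusted p = 0.75, edgeR). Their proportion stayed the same within the spread of the libraries, since Gabbr1 held 72.7% and 76.5% of the per-kilobase sum in the KO libraries and 75.5% and 74.4% in the WT libraries.

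**Figure D4:**
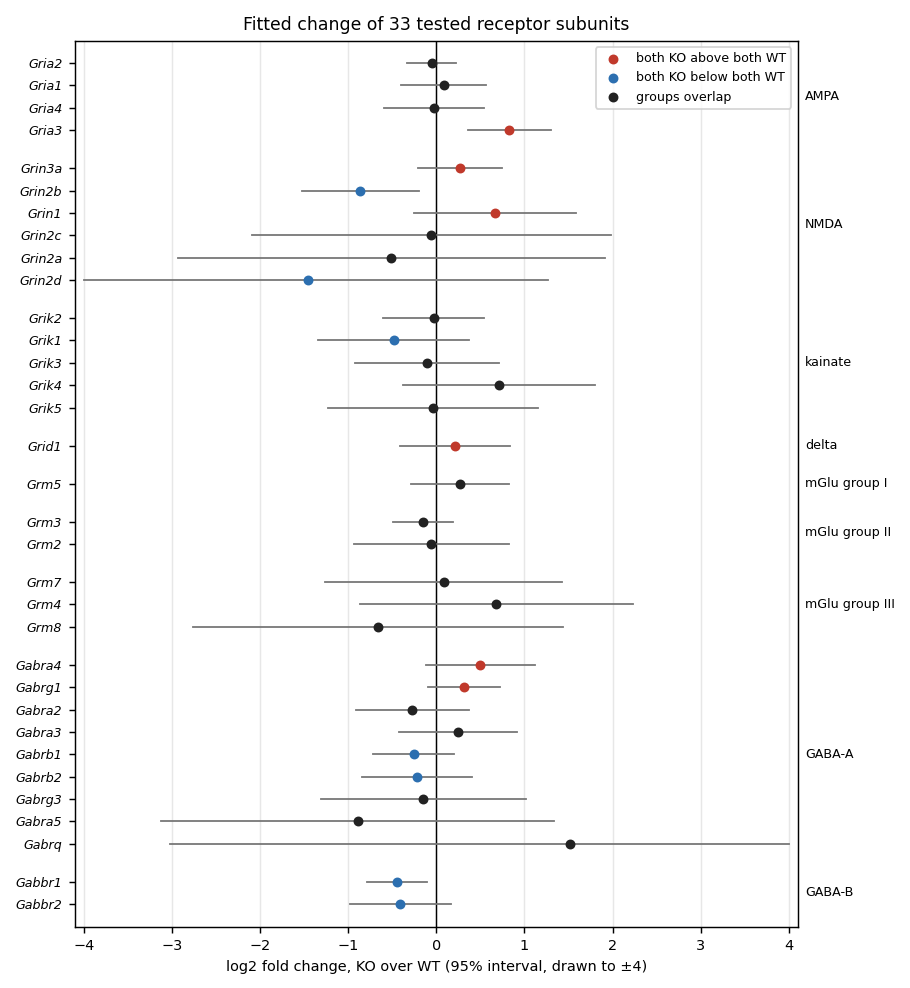
Fitted log2 fold change (KO over WT) of 33 of the 38 tested receptor subunits with 95% intervals, in family blocks. Red and blue points mark genes whose KO libraries both lie above or both below the WT libraries, and the intervals of Gria3, Grin2b and Gabbr1 do not reach 0 before adjustment for the number of genes tested.

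Several GABA-A genes lie in clusters, and the log2 fold changes of neighbours differed in sign on chromosome 5. On chromosome 5, Gabrg1 and Gabra4 lay higher in both KO libraries, while Gabrb1 lay lower, with 44.4 and 48.4 CPM in the KO libraries and 54.4 and 56.6 CPM in the WT libraries, and Gabra2 overlapped. Gabra4 and Gabrb1 start head to head on opposite strands, with Gabra4 ending at 71658308 and Gabrb1 starting at 71658113, and 46 exon bases overlap, so the counting could assign a few reads to either. On chromosome 7, the log2 fold changes were -0.89 for Gabra5 and -0.15 for Gabrg3, and the groups overlapped for both. Gabrb2, a beta subunit on chromosome 11, lay lower in both KO libraries (20.03 and 19.2 CPM) than in the WT libraries (21.6 and 24.2 CPM), with a log2 fold change of -0.22. On chromosome X, Gria3, Gabra3 and Gabrq had log2 fold changes of 0.83, 0.25 and 1.51, and the part of the difference in Xist counts between the KO libraries in these was not tested. Gabrq had 15 and 74 counts in the KO libraries and 32 and 0 counts in the WT libraries, and the groups overlapped.

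The genes that anchor, assemble or serve these receptors gave 0 calls by edgeR in each of 4 lists, in which 60 genes were tested. Of the 17 AMPA and kainate auxiliary subunits 15 were tested, with a median log2 fold change of -0.12 and 6 above 0. The most abundant were Cpt1c, a partner of GluA1 in the secretory pathway, with 155 and 172 CPM in the KO libraries and 153 and 111 CPM in the WT libraries, and Cacng5, at -0.05. The excitatory scaffold list had 20 tested members and a median of 0.00, with 10 above 0. Its most abundant members Dlgap1 and Dlgap4, which link PSD-95 to Shank proteins, had log2 fold changes of 0.18 and -0.26. The list of inhibitory scaffold and GABA receptor partners had 11 tested members and a median of -0.03, with Clptm1, a trafficking factor of GABA-A receptors, at 0.30. The metabotropic signalling list of 14 tested members had a median of 0.05, with the G protein genes Gnai3 at 0.04 and Gnao1 at -0.21. Of these 4 lists, 0 members passed at an adjusted p under 0.05 (edgeR), and at an unadjusted p below 0.05 there were 7 with a higher and 1 with a lower KO mean, where 5.88% of all genes were higher and 2.41% lower. DESeq2 called 2 of the 60, Camk2a and Rgs4, where it called 2.14% of all genes, and limma-voom called 0.

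In the list of transmitter synthesis, vesicle loading and chloride transport, 0 of 8 members passed, and 3 with a higher and 2 with a lower KO mean had an unadjusted p below 0.05 (edgeR), where 5.88% of all genes were higher and 2.41% lower. DESeq2 called 1 of the 8, Gad2, where it called 2.14% of all genes, and limma-voom called 0. The GABA-synthesising enzymes lay lower in both KO libraries. Gad2 had 102 and 122 CPM in the KO libraries and 174 and 167 CPM in the WT libraries (log2 fold change -0.60 ± 0.15 SE, adjusted p = 0.38, edgeR), and Gad1 had 57.8 and 56.4 CPM in the KO libraries and 75.6 and 77.5 CPM in the WT libraries (-0.42 ± 0.17 SE, adjusted p = 0.58, edgeR). Slc12a2, the chloride importer NKCC1 that sets the direction of GABA-A currents in young cells, had 79.8 and 74.3 CPM in the KO libraries and 40.8 and 52.5 CPM in the WT libraries (0.72 ± 0.20 SE, adjusted p = 0.45, edgeR). The groups did not overlap for these 3 genes. In the whole list 4 of 8 members lay higher and 2 lower without overlap, beside 21.2% and 18.4% of all genes tested. Slc12a5, the neuronal chloride exporter KCC2, had 9.17 and 4.65 CPM in the KO libraries and 3.37 and 13.5 CPM in the WT libraries, with the WT libraries on both sides. Slc12a2 exceeded Slc12a5 per kilobase by 5.93 and 10.9 times in the KO libraries and by 8.24 and 2.66 times in the WT libraries. The median of this list was 0.37 and it was -0.29 over genes with a mean of at least 5 CPM, where fewer of its members were tested. Both GABA-synthesising enzymes are also in the neuron marker list, of which 8 of 20 members had a log2 fold change above 0.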

How the data were processed

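The authors deposited 4 tables, each with gene counts for 1 KO and 1 WT library, per the file headers. A second column per library, deposited as a normalized signal, is the count times 1 factor per library with 0 replaced by 0.5, and it served only to check totals. The submitters' processing notes name Bowtie2 2.2.3, TopHat2 2.0.12, HTSeq 0.6.0 and mm9, with no roles stated, but 21269 of 23475 gene positions (90.6%) equal those of GENCODE M21 on GRCm38, which is used here. Tables were joined by gene with 0 conflicting counts. Beside a count of 0 a gene is listed only from 5 counts, so an unlisted count, set to 0, is at most 4. The totals implied by the deposited factors put the unlisted share of any library at 0.0191% or less.

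Groups were compared on all 4 libraries with edgeR 4.0.16 in R 4.3.3 (TMM, quasi-likelihood, filterByExpr with a minimum count of 10, 2 residual degrees of freedom, threshold 0.05, Benjamini-Hochberg). CPM values are TMM-scaled. Each standard error was derived from the F statistic. Length is the union of annotated exons. Alternatives were DESeq2 1.42.0, limma-voom (limma 3.58.1), a looser threshold, other scalings and filters, each library left out in turn, and the replicate number as a block. The scripts were tested on simulated data. Genes named are Grm3, Grm5, the 2 most abundant per family, the members of developmental pairs, the 5 higher and 5 lower members with the smallest p, and the 2 most abundant of each partner list. Other members appear so that each family is accounted for. The members and lists were chosen with earlier results of these data known. No set test was run. Some genes that these rules name are not reported here.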

Additional observations from a re-analysis of the deposited data

How the results depend on the processing

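Over all genes, 3 were called higher and 0 lower, and the counts were 315 and 63 by DESeq2, 25 and 3 by limma-voom, 63 and 5 over genes with a mean of at least 5 CPM, 52 and 4 without a low-count filter, and 14 and 1 at an adjusted p under 0.1. Leaving out a library gave 0 to 41 higher and 0 to 1 lower, with 0 higher without KO replicate 2 (edgeR, where 1021 genes had an unadjusted p under 0.05) and 41 without WT replicate 2. Receptor members called stayed at 0 under these settings and the other scalings, except for 1 (Gria3) by DESeq2, and ranged from 0 to 0 over the libraries left out. The median of the members ran from -0.036 to 0.17 and the glial minus neuronal difference from -0.28 to 0.25 when a library was left out. The transmitter and chloride list ran from 0.058 to 0.98, and was -0.29 at a mean of at least 5 CPM, where fewer of its genes were tested. Grin2a, at -0.51, was 0.37 by limma-voom and 0.21 with the replicate block. Leaving out a library turned the sign of Grin2a (-1.36 to 1.87), Gabra2 (-0.63 to 0.013), Gria1 (-0.072 to 0.27), Gria2 (-0.11 to 0.010) and Grik2 (-0.30 to 0.20), and the cause was not tested. With the replicate block edgeR called 4 genes higher and 0 lower, and it changed no call of a receptor member. The replicate numbers pair no libraries by the labels, and the deviations of same-numbered libraries correlated at 0.0447 over genes. Of the 10 highest members per length, 8 stayed among the 10 with the longest transcript as length and 10 as TPM. With 2 libraries per group, intervals are wide for genes under about 5 CPM.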

Other observations

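Some partner genes outside the naming rule are given here, chosen after their values were seen. Of these, Camk2a and Rgs4 had smaller p-values (edgeR) than the named ones. None passed by edgeR, while DESeq2 called Camk2a and Rgs4. Camk2a, the kinase of the excitatory postsynapse, had 48.9 and 42.6 CPM in the KO libraries and 16.4 and 16.0 CPM in the WT libraries (log2 fold change 1.495 ± 0.23 SE, adjusted p = 0.16). Rgs4, which shortens signalling of Gq- and Gi-coupled receptors, had 66.1 and 86.1 CPM in the KO libraries and 34.3 and 16.5 CPM in the WT libraries (1.58 ± 0.38 SE, adjusted p = 0.36). Itpr2, the main calcium-release channel of astrocytes, had 112 and 123 CPM in the KO libraries and 81.0 and 88.9 CPM in the WT libraries (0.47 ± 0.15 SE, adjusted p = 0.47). Slc17a6, a vesicular glutamate transporter of neurons, had 42.9 and 55.7 CPM in the KO libraries and 26.9 and 32.6 CPM in the WT libraries (0.73 ± 0.24 SE, adjusted p = 0.50). In these 4 genes both KO libraries lay above both WT libraries, as in 21.2% of all genes tested. They were picked with their values known, so their share cannot be compared with that percentage. Some partner genes with smaller p-values (edgeR) than Itpr2 and Slc17a6 are left out. Also left out is the 1 excitatory scaffold gene that was lower in the KO libraries at an unadjusted p under 0.05 (edgeR).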
